A study of Mus musculus with 20 samples.

Results

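Untreated CRISPR control samples of 1 mouse cell line were compared between 2 sets: control replicates 1 and 2 (set 1, n = 2) and control replicates 3 to 6 (set 2, n = 4), chosen by the replicate number in the sample titles, which are 6 of the 20 samples of the series. All 6 are E2-10HA cells, a mouse T cell hybridoma, meaning T cells that were fused to lymphoma cells to make them grow without end, and the labels call them mature T cells. All carry the empty lentiCRISPRv2 vector, which encodes Cas9 and a puromycin marker with no guide, and all were selected with puromycin. No agent separates the sets in the labels, so the comparison asks how far untreated cells of 1 line differ between 2 rounds of samples. For set 1 the labels state that there was no treatment and give a growth protocol, IMDM with a small share of fetal calf serum plus peptone, insulin and amino acids. Neither entry is given for set 2, and the output folder in the file headers also differs between the sets. The same 2 sets exist in a line with lentiCRISPRv2 guides against both H2A.Z genes, H2afv and H2afz (guide replicates 1 and 2 against 3 to 6, also puromycin selected), whose titles all carry 1 number and are treated as samples of 1 line. It served as a second, separate measurement of the set difference. Untreated cells with biotin-tagged wild-type or DEP mutant Notch intracellular domain (BioNICD with BirA ligase, histidinol and sorting, n = 2 each) and NICD-ER cells with 24 hours of ethanol or 4-hydroxytamoxifen (sorting, n = 2 each) were used only for label checks and for levels beside a result. Whether the replicates are separate cultures is not stated, so the p-values speak only of the spread among these libraries, part of which may be technical.

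Cultured lymphoid cells read out their medium through a few well-known programs. Serum and insulin act through growth factor signalling, which drives ribosome synthesis and entry into DNA replication and keeps the FOXO factors out of the nucleus. Glucose flux is sensed by Mlx-family factors that act on Txnip and Arrdc4, sterol load by LXR and SREBP, unfolded protein by Xbp1, and serum shifts by immediate early genes such as Fos and by the circadian clock. Such programs can differ between dishes of the same line, and a clonal line can also gain or lose the expression of single loci.

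Total counts were 10704131 and 10977236 in set 1 and 14041970 to 15440584 in set 2. The descriptions of control replicates 3 and 4 name wild-type BioNICD cells and those of 5 and 6 the DEP mutant, against their titles and plasmid. Notch1 counts went with the titles, at 0.913 to 2.75 CPM (read counts scaled to a common library size, with TMM factors) over the 6 controls. Its means were 282 CPM in wild-type BioNICD cells and 643 CPM in the DEP mutant. Dtx1, a Notch target, stood at 0 to 0.412 CPM against 1629 CPM in wild-type BioNICD cells but only 1.71 CPM in the DEP mutant. H2afz stood at 24.7 to 31 CPM and H2afv at 116 to 149 CPM over the 6 controls. These 2 genes cannot tell controls from DEP mutant cells, which had means of 25.7 and 120 CPM. H2afz was at most 5.70 CPM in set 1 and 5.68 CPM in set 2 of the guide line. Counts over whole exons cannot show whether transcripts are edited. The T cell list summed to 6149 and 6259 CPM in set 1 and 5545 to 5801 CPM in set 2, with Cd8a and Cd8b1 at 0 in all 6 controls. B cell, myeloid and erythroid markers summed to at most 4.74 CPM in any control, with Ms4a1, Pax5, Spi1 and both beta-globin genes at 0.

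A pair of libraries stood apart. Control replicate 1 held connective tissue transcripts at levels that no other control reached: Col1a1 was at 9.49 CPM in replicate 1 and 0.0947 in replicate 2, Col1a2 at 11.3 and 0.189, and the fibroblast and epithelial marker list (3 of 12 at 0 in all controls, Epcam, Krt18 and Krt5) summed to 36.8 against 0.474 CPM, with at most 0.137 in set 2. Of 10335 genes with at least 20 counts over both set 1 controls, 27 were at least 4-fold higher in replicate 1 (after adding 0.5 CPM) and 0 were 4-fold lower, and all 27 were also at least 4-fold higher in guide replicate 1 than in guide replicate 2. None of the 27 passed the low-count filter, so they enter no count of called genes. Control replicate 6 held 6.73% of its counts in Rn45s, the ribosomal RNA precursor, against 2.89% to 3.06% in the other controls of set 2 and 2.46% and 3.26% in set 1, and the share was also raised in guide replicates 5 (7.67%) and 6 (6.93%). The counts of called genes are therefore also given without replicates 1 and 6.

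The sets differed widely and the samples within a set little. On the first principal component of log2 CPM, which held 69.9% of the variance, replicates 1 and 2 lay at -35.6 and -34.7 and replicates 3 to 6 between 17.2 and 18.4. The SD of log2 CPM differences over genes was 0.316 between the set 1 samples, 0.248 to 0.261 within set 2 and 0.541 to 0.563 between sets. The second component (10.5%) separated replicate 1 from replicate 2. The mean chi-square of a pair, over genes with 20 or more counts, was 5.75 within set 1, 3.10 to 39 within set 2 and 22 to 57.9 between sets. Within set 2 the pairs with replicate 6 were highest (35, 35.8 and 39), so the mean does not part the sets. The median chi-square was 0.940 within set 1, 0.674 to 1.11 within set 2 and 3.53 to 4.12 between sets. By the mean, no 2 samples agreed within counting noise. In edgeR's quasi-likelihood test with Benjamini-Hochberg adjustment over all genes, which gives every adjusted p below, 4595 of 10794 genes differed between the sets at an adjusted p under 0.05 (42.6%), 2253 higher in set 2 (20.9%) and 2342 lower (21.7%). Most differences were small: the median absolute log2 fold change of the called genes was 0.33, and 391 genes were called and at least 2-fold apart (3.62%), 214 higher and 177 lower. The CPM ranges of the sets did not overlap in 6160 genes (57.1%). Without control replicates 1 and 6, 3173 genes were called, of which 2997 were among the 4595 and all of these kept their direction, and 350 were at least 2-fold apart.

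The Gimap cluster, a run of 8 genes on chromosome 6 for small GTPases of lymphocytes, some of which are linked to T cell survival, was the clearest difference in kind (mm9, chr6:48597233-48720850). All 8 genes but Gimap9 had no counts in either set 1 control. Gimap1 had 0 and 0 CPM in set 1 against 10.0, 11, 11.6 and 11.5 CPM in set 2. Gimap7 had 0 and 0 CPM in set 1 against 10.5, 10.1, 9.87 and 11.1 CPM in set 2. The 4 set 2 samples lay close together in both genes, while the lack of overlap with set 1 was a condition of the naming rule. Relative to a floor of 3 counts over set 1, Gimap1 was at least 77.6-fold and Gimap7 at least 73.5-fold higher in set 2 (adjusted p = 1.34e-09 and 1.5e-09). Gimap9, the one member expressed in set 1, had 5.45 and 7.29 CPM in set 1 against 51, 57, 54.5 and 50.1 CPM in set 2 (log2 fold change 3.06, SE 0.11, adjusted p = 2.26e-11). Gimap8, Gimap6, Gimap5 and Gimap4 were at least 19-fold, 10.8-fold, 9.80-fold and 6.98-fold higher, with set 2 means of 2.69, 1.53, 1.38 and 0.992 CPM, and Gimap3 had 3 counts over set 2 and was not tested. Gimap1, Gimap7 and Gimap9 were picked by the naming rule and the other members were named after their values were seen. The cluster summed to 5.45 and 7.29 CPM in set 1 and to 78.4 to 84.9 CPM in set 2. In the guide line it stayed at or below 0.391 CPM in set 1 and 1.11 CPM in set 2. Other lines of the series expressed it, with sums of 385 and 397 CPM in wild-type BioNICD cells, 95.7 and 101 CPM with the DEP mutant and 28.1 and 29.9 CPM with ethanol in the NICD-ER line. Ets1, a lymphoid transcription factor gene on chromosome 9, showed the same on and off pattern in the controls, with 0 and 0 CPM in set 1 against 1.65, 1.77, 1.32 and 1.76 CPM in set 2, at least 11.5-fold higher. Among genes with no counts in set 1 and a set 2 mean of at least 1 CPM there were 7, the other 6 being Gimap1, Gimap5, Gimap6, Gimap7, Gimap8 and Ocm. In the reverse direction there were 14. Col1a1, Col1a2, Col3a1, Dcn, Pdgfra, Fn1, Igfbp3, Timp2, Fstl1, Serping1, Thbs1, Postn, Bgn and H19 are all among the 27 genes of replicate 1 above. These genes and Ocm were named after their values were seen.

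**Figure D1:**
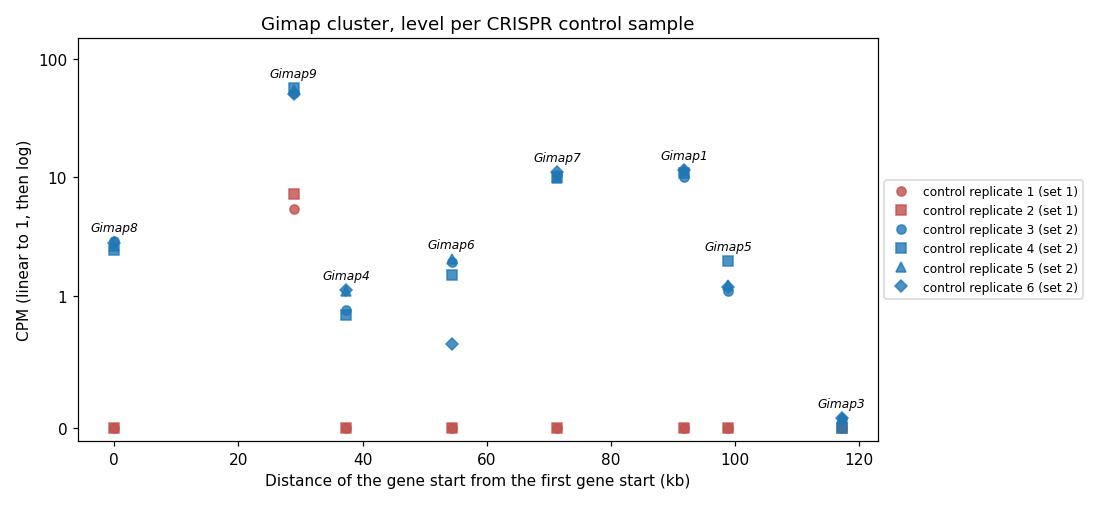
Level in CPM of the 8 Gimap genes in each of the 6 CRISPR controls (points, set 1 red, set 2 blue), against the distance of each gene's start from that of Gimap8 in kb; the vertical axis is linear to 1 CPM and logarithmic above, and CPM is not scaled by gene length. In set 1 only Gimap9 is above 0, at 5.45 and 7.29 CPM, and in set 2 it lies between 50.1 and 57.0 CPM.

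Promoters of Gimap1 and Gimap7, the 2 members with the largest difference, are shown as reference sequence from RefSeq (GRCm38.p6), each from 250 bases before to 50 after the gene start, 5′ to 3′ on the gene's strand. They lie at chr6:48738797-48739096 and chr6:48718371-48718670, both on the plus strand. CCGGAAGT, the letters of a strong ETS factor site, was searched on both strands: 0 of the 8 Gimap promoters hold it, against 1081 of 27025 promoters of this length (4%), and none of the 8 holds CACGTG, the E-box. No letters are therefore in capitals in this pair. At such shares 0 of 8 cannot set these promoters apart from others. The search covers only these exact letters, so other forms of ETS site may be present.
Gimap1: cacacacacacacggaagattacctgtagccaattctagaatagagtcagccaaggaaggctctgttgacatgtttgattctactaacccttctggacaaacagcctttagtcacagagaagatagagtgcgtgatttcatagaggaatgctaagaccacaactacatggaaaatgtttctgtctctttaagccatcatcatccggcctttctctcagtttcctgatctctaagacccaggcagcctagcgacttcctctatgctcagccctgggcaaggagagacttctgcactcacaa
Gimap7: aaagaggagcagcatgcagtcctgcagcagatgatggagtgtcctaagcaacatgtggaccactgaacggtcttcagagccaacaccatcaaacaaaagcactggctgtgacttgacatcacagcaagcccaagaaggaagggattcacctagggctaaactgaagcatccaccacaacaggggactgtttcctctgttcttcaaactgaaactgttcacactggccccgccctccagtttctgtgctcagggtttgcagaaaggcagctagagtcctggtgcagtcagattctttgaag

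Other genes with a large difference have varied roles. Rap1gap2, which turns Rap1 off, had 3.01 and 2.08 CPM in set 1 against 17.9, 18.3, 21 and 16.9 CPM in set 2 (log2 fold change 2.86, SE 0.17, adjusted p = 4.6e-09). Rasgrp2, which turns Rap1 on, had 0.564 and 0.284 CPM in set 1 against 5.22, 5.71, 4.53 and 4.92 CPM in set 2 (log2 fold change 3.56, SE 0.32, adjusted p = 3.51e-07), and Rassf2, a Ras-binding protein gene, 1.03 and 1.61 CPM in set 1 against 14.4, 13.3, 13.6 and 12 CPM in set 2. The naming rule took only genes whose sets do not overlap, so the separation of the samples in these 3 is no separate result. Dhrs3, a retinaldehyde reductase gene, stood at 0.566 ± 0.136 CPM in set 1 and 12.6 ± 0.461 CPM in set 2 (log2 fold change 4.46), Asb2, which encodes a ubiquitin ligase subunit, at 0.237 ± 0.335 and 8.06 ± 0.762 (5.04), and Ms4a6b, a lymphocyte membrane protein gene, at 0.850 ± 0.138 and 11.6 ± 0.779 (3.76). Zfp57, the zinc finger that guards imprints, went from 0.566 ± 0.00301 to 6.27 ± 1.02 CPM (3.46) and Syt13, a synaptotagmin, from 1.65 ± 0.0755 to 17.2 ± 1.54 CPM (3.38). Lars2, annotated as the mitochondrial leucyl-tRNA synthetase, had 197 and 116 CPM in set 1 against 805, 971, 259 and 9424 CPM in set 2 (log2 fold change 4.20, SE 1.09, adjusted p = 0.00551). Its value in replicate 6 lies with the high Rn45s share of that library, while replicates 3 to 5, without a raised Rn45s share, were still above set 1; the part of ribosomal RNA in these counts was not tested.

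On the side higher in set 1, Sgk1, the serum- and glucocorticoid-regulated kinase gene (mm9, chr10:21601990-21719708), had 253 and 256 CPM in set 1 against 32.4, 33.6, 31.4 and 32 CPM in set 2 (log2 fold change -2.97, SE 0.045, adjusted p = 1.13e-16). The samples of a set nearly coincide, and the sets lie far apart. Agpat9, an enzyme of triglyceride synthesis, had 29.4 and 25.6 CPM in set 1 against 3.36, 3.22, 4.32 and 4.14 CPM in set 2 (log2 fold change -2.87, SE 0.13, adjusted p = 1.32e-10). Ccr6, the chemokine receptor for Ccl20, had 12.8 and 17.7 CPM in set 1 against 2.61, 2.63, 2.85 and 2.46 CPM in set 2 (log2 fold change -2.52, SE 0.16, adjusted p = 9.09e-09). Fbxo32, a ubiquitin ligase gene that FOXO factors induce, stood at 10.0 ± 1.68 CPM in set 1 and 2.28 ± 0.482 CPM in set 2 (log2 fold change -2.13), Slc4a8, a bicarbonate transporter gene, at 18 ± 1.31 and 3.45 ± 0.687 (-2.37), Capg, an actin-capping protein gene, at 35.1 ± 0.681 and 8.13 ± 0.996 (-2.10), and Fam134b, an ER-phagy receptor gene, at 11.3 ± 1.07 and 2.80 ± 0.324 (-2.0). Myadm and Amica1, both of membrane proteins, had log2 fold changes of -2.24 and -2.12. The most highly expressed gene of this kind, 5830411N06Rik, had 1302 and 1231 CPM in set 1 against 193, 193, 198 and 201 CPM in set 2 (-2.69), and 5930403L14Rik fell furthest, from 14.7 ± 1.19 to 0.279 ± 0.190 CPM.

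**Figure D2:**
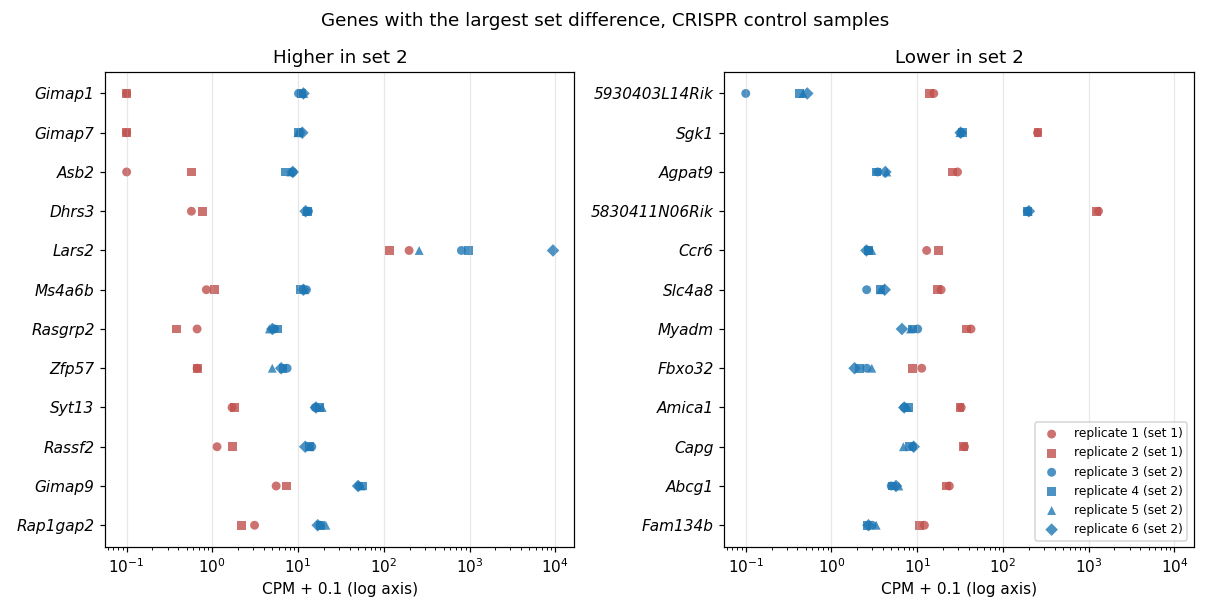
CPM + 0.1 on a log axis in each of the 6 CRISPR controls (points, set 1 red, set 2 blue) for the 12 genes with the largest positive and the 12 with the largest negative log2 fold change among called genes whose sets do not overlap and whose higher set reaches 5 CPM. The set 2 points of a gene sit close together except for Lars2, which runs from 259 to 9424 CPM, and 5930403L14Rik, which runs from 0 to 0.422 CPM.

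Ribosome biogenesis genes were higher in set 2: of 28 members tested 24 were called higher and 0 lower, with a median log2 fold change of 0.42 against 0.0065 over all genes tested. Of all genes tested in the controls 20.9% were called higher and 21.7% lower, the shares to set beside each list count below. Ncl, nucleolin, had 541 and 544 CPM in set 1 against 953, 963, 1007 and 929 CPM in set 2 (log2 fold change 0.83, SE 0.043, adjusted p = 8.14e-10). Polr1b, a subunit of the polymerase that makes ribosomal RNA, had 25.3 and 23.5 CPM in set 1 against 43.3, 37.8, 42.7 and 44.8 CPM in set 2 (log2 fold change 0.79, SE 0.086, adjusted p = 2.68e-06). Mybbp1a and Nop56, 2 further nucleolar proteins, had log2 fold changes of 0.79 and 0.70. All 28 members lay above 0. In the guide line 22 of 28 were called higher and 0 lower (36.5% of 10806 genes called in that comparison, 16.8% higher and 19.8% lower), with a median of 0.44. All 22 were also called higher in the controls. Cytosolic ribosomal protein genes were less uniform. In the controls 14 of 74 were called higher, not above the 20.9% of all genes, and 4 lower (median 0.15). In the guide line 2 of 75 were higher and 20 lower (median -0.094). Rpl13 rose by a log2 fold change of 0.48 and Rpl35 had -0.91. The number called higher ranged from 5 to 21 over the alternatives, so it is not stable in either direction. It was 9 without control replicate 1, 9 without control replicate 4 and 5 without replicates 1 and 6. These genes held 1.66% of the counts in replicate 1 and 1.90% in replicate 2. Ribosomal protein genes have many near-identical processed copies, so their counts are uncertain.

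DNA replication genes were higher in set 2 as well. In the G1/S list 24 of 30 were called higher and 1 lower, with a median log2 fold change of 0.26. Tyms, which makes thymidylate, had 34.5 and 33 CPM in set 1 against 53.6, 55.2, 53.2 and 53.3 CPM in set 2 (log2 fold change 0.68, SE 0.063, adjusted p = 5.12e-07). Ung, the uracil glycosylase that acts at forks, went from 25.1 ± 2.27 to 39 ± 0.351 CPM (0.64), Mcm10 had a log2 fold change of 0.60 and Gins1, a part of the replicative helicase, of 0.51. The 6 members of the Mcm2 to Mcm7 helicase were all called higher, at 0.17 to 0.50. The guide line gave 24 higher and 1 lower of 30, with 24 genes called in the same direction in both lines, and a median of 0.46. Mitotic genes were split: in the G2/M list 7 of 28 were called higher and 5 lower (median 0.018, and 4 and 3 without control replicate 2, with a median of -0.014), with Kif11 at 0.28 and Cdc25c at -0.30, and in the guide line 2 were higher and 12 lower (median -0.12). Replication-dependent histone genes, whose transcripts accumulate in S phase and lack poly(A) tails, were called higher in 41 and lower in 0 of 58 (median 0.39). Hist1h3c had 24.4 and 17.9 CPM in set 1 against 71.9, 73.4, 75 and 76.4 CPM in set 2 (log2 fold change 1.81, SE 0.089, adjusted p = 5.1e-10), and the share of counts on these genes was 1.10% and 1.15% in set 1 and 1.37% to 1.49% in set 2 (exact permutation test, two-sided p = 0.133, the smallest that 2 against 4 samples allow). Single histone genes share sequence with near-identical copies and are uncertain. With guides 37 of 57 were higher and 2 lower.

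Factors of mitochondrial RNA handling and several chaperones were also higher in set 2. Of 12 mitochondrial RNA genes 7 were called higher and 0 lower (median 0.25), Lars2 among them and also Lrpprc, which stabilises mitochondrial transcripts, at 173 ± 14 and 221 ± 6.29 CPM (0.36) and Fastkd5 (0.66). The counts were 7 and 0 in the guide line too. In the heat shock list 8 of 14 were higher and 1 lower. Hsph1 had 75.3 and 72.1 CPM in set 1 against 115, 108, 111 and 107 CPM in set 2 (0.58), the mitochondrial chaperonin Hspd1 0.32 and Hsp90aa1 0.30, while the cochaperone Bag3 had -0.30 a call lost without replicate 1. Most nuclear-encoded respiration genes, 28 of 39, were not called (over all genes 20.9% were higher and 21.7% lower). The list had 6 higher and 5 lower (median 0.0080). Without control replicate 1 these were 1 and 4 with a median of -0.068, without replicate 4 they were 4 and 9 with -0.025, and 3 were lower without replicate 2 or 5. Tfrc, the transferrin receptor for iron uptake, had 637 and 604 CPM in set 1 against 1495, 1383, 1544 and 1473 CPM in set 2 (log2 fold change 1.25, SE 0.049, adjusted p = 4e-11), and belongs to a metal list with 3 higher and 1 lower of 7. The metallothioneins Mt1 and Mt2 had log2 fold changes of 0.38 and 0.64, and the zinc exporter gene Slc30a1 had -0.57. In the guide line the list had 1 higher and 3 lower of 7, with -0.017 for Mt1, -0.088 for Mt2 and -0.47 for Slc30a1.

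Genes of the starvation and FOXO list were lower in set 2, 9 of 16 against 1 higher, with a median log2 fold change of -0.32. The largest were the 2 paralogous arrestin-fold genes that respond to glucose. Txnip, which limits glucose uptake (mm9, chr3:96361880-96365780), had 1758 and 1752 CPM in set 1 against 753, 749, 749.8 and 736 CPM in set 2 (log2 fold change -1.23, SE 0.036, adjusted p = 1.24e-12). Arrdc4 had 48.2 and 47.7 CPM in set 1 against 16.2, 19, 22.6 and 19.1 CPM in set 2 (log2 fold change -1.32, SE 0.095, adjusted p = 3.65e-08). In both genes every set 2 sample lay below both set 1 samples, where the sets did not overlap in 57.1% of all genes. The Txnip values of a set nearly coincide. In the guide line Txnip stood at 1611 and 1626 CPM in set 1 and 329 to 343 CPM in set 2 (log2 fold change -2.28), and Arrdc4 at 6.60 and 8.43 against 1.36 to 1.66 CPM (-2.33). Both differences were larger in the guide line than in the controls (interaction -1.05, SE 0.058, adjusted p = 8.18e-08 and -1.0, SE 0.22, adjusted p = 0.00786). Arrdc3, a related arrestin-fold gene, had 83.2 and 79.8 CPM in set 1 against 51, 49.9, 51.9 and 50.7 CPM in set 2 (-0.68), Sesn1, an inhibitor of growth signalling, -0.40 and the quiescence factor Klf2 -0.68, whose call was lost without replicate 1. In the glycolysis and hypoxia list 12 of 33 were lower and 5 higher (median -0.075; 7 lower without control replicate 2, 3 higher without replicate 5 or 6), with P4ha2 at -0.68 and Aldoc at -0.33 but the hypoxia-induced Kdm3a at 0.44 and Ndrg1 at 0.33. Ndrg1 and Kdm3a had the opposite sign in the guide line, -0.78 and -0.30.

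The promoters of Txnip and Arrdc4 are shown because the pair fell together in both lines, with that of Mybbp1a from the group that was higher (RefSeq, GRCm38.p6, the same window). They lie at chr3:96557707-96558006 on the plus, chr7:68749189-68749488 on the minus and chr11:72441077-72441376 on the plus strand. Capitals mark CACGTG, which reads the same on both strands, and in Txnip a pair of CACGAG 5 bases apart, the form in which Txnip is known to carry a carbohydrate response element, which in general is a pair of E-box-like motifs. These letters were searched on both strands and were found in 1 of 27025 promoters; since they are Txnip's own form, the search does not cover other forms of the element. In Txnip the pair starts 85 bases before the gene start. Arrdc4 holds 1 E-box, 193 bases before the start, and Mybbp1a 1, at base 41 after it. Across 27025 promoters 1957 hold CACGTG (7.24%). It was present in 6 of the 23 ribosome biogenesis genes matched by symbol (26.1%), 4 of 17 of the starvation list (23.5%), 5 of 16 clock genes (31.2%) and 3 of 25 G1/S genes (12%). These are matches of letters and no measure of binding.
Txnip: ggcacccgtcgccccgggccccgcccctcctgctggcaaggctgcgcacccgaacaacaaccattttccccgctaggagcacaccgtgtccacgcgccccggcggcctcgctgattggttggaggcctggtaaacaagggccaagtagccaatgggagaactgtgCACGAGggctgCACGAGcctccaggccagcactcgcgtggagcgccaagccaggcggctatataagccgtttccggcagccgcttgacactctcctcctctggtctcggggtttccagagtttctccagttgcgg
Arrdc4: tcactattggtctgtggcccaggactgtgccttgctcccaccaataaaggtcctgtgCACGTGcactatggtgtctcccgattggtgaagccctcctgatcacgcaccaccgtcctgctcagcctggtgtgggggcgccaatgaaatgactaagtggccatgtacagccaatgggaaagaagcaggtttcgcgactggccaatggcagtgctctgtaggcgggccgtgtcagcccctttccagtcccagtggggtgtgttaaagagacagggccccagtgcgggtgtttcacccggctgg
Mybbp1a: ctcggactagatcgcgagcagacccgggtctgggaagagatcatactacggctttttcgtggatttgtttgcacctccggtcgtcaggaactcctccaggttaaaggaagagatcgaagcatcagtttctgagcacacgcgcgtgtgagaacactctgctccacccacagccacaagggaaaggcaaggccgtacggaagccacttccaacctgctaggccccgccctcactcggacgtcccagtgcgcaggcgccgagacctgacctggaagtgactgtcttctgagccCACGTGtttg

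Immediate early genes, which answer serum and receptor signals within minutes, were mostly lower in set 2, 13 of 24 against 6 higher (median -0.37). Fos had 40.8 and 44.5 CPM in set 1 against 12.3, 11.5, 11.8 and 11.2 CPM in set 2 (log2 fold change -1.86, SE 0.081, adjusted p = 1.32e-10). Fosb had 25.9 and 38.4 CPM in set 1 against 9.13, 11.3, 9.36 and 9.84 CPM in set 2 (log2 fold change -1.69, SE 0.13, adjusted p = 9.79e-08), and Jund a log2 fold change of -0.92. The members did not move as one, since Nr4a3, an orphan nuclear receptor gene induced by antigen receptor signals, had 1.41 and 1.99 CPM in set 1 against 5.15, 5.52, 4.75 and 5.34 CPM in set 2 (log2 fold change 1.61, SE 0.22, adjusted p = 2.64e-05). The guide line gave 11 lower and 4 higher of 24, 13 genes being called in the same direction in both lines and 0 in opposite ones. Among genes that respond to glucocorticoids 4 of 7 were higher and 2 lower (1 lower without control replicate 2): Sgk1 was 1 of the 2, while Nr3c1, the glucocorticoid receptor itself, went from 399 ± 38.9 to 584 ± 22.2 CPM (0.56) and Tsc22d3 from 146 ± 0.907 to 180.5 ± 4.20 CPM (0.32).

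Clock genes differed in both directions. Dbp, a clock output factor gene, had 93.6 and 95.2 CPM in set 1 against 29.9, 38.7, 34.4 and 38.2 CPM in set 2 (log2 fold change -1.41, SE 0.077, adjusted p = 1.61e-09). Hlf, its paralog, had 1.41 and 2.18 CPM in set 1 against 0.687, 0.460, 0.804 and 0.703 CPM in set 2 (-1.43, a call lost without replicate 2) and Bhlhe41, a clock repressor, a log2 fold change of -0.91. In all 8 of 17 clock genes were lower and 4 higher (2 higher without control replicate 5; median -0.15), Per1 among the higher with 105 and 107 CPM in set 1 against 139.8, 135, 122 and 129 CPM in set 2 (0.32). Ciart had 1.26, a call that 6 alternatives lost. Of 13 E-box driven genes of the clock, a group made after the values were seen, 2 were higher and 8 lower in the controls, and in the guide line all 11 tested were lower, at -2.11 to -0.31. Per1 had -0.67 there, and the difference between lines passed the test (interaction -0.99, SE 0.087, adjusted p = 9.4e-06).

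Sterol and lipid genes were lower in part. All 4 sterol efflux genes tested were called lower, with Abcg1, a cholesterol exporter, at 23.6 and 21.6 CPM in set 1 against 4.88, 5.06, 6.0 and 5.55 CPM in set 2 (log2 fold change -2.07, SE 0.11, adjusted p = 1.6e-09), Mylip, the ligase that removes the LDL receptor, at -1.16, and Lpcat3 and Nr1h2 at -0.34 and -0.23. The call of Nr1h2 was lost without replicate 2. In the guide line 3 of the 4 were called lower and 0 higher. Lpcat3 had 0.25 there, not called (adjusted p = 0.133, interaction adjusted p = 0.0114). In fatty acid synthesis 9 of 15 were lower and 3 higher (1 higher without control replicate 2 or 5), Scd2, the desaturase, having 7814 and 7522 CPM in set 1 against 5772, 5505, 5879.6 and 5658 CPM in set 2 (-0.42), Srebf1 -0.39 and Elovl6 -0.59. The guide line did not repeat the direction of the list, with 6 of 15 higher and 6 lower and a median of 0.19 against -0.19 in the controls. Called in both lines were 8 genes in the same direction and 2 in opposite ones. Elovl6 had the opposite sign in the guide line (0.38, interaction adjusted p = 0.00126). Cholesterol synthesis was mixed, 3 higher and 8 lower of 22, with Lss, lanosterol synthase, at 0.38 and Insig1, which holds SREBP in the ER, at -0.36. With guides 10 of 22 were higher and 3 lower.

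Stress genes of the endoplasmic reticulum differed in direction from those of amino acid supply. The joint list had 11 higher and 14 lower of 31, with 7 higher without control replicate 1. Its 11 folding genes, a group made after the values were seen, were all called lower, at -0.76 to -0.23, and all 11 were lower in the guide line too, at -0.81 to -0.27. Xbp1, the transcription factor of that response, had 155 and 152 CPM in set 1 against 90.4, 84.7, 93 and 93.2 CPM in set 2 (log2 fold change -0.76, SE 0.048, adjusted p = 8.43e-09), and Creld2 -0.59. Of 13 genes of amino acid synthesis, transport and charging, also grouped afterwards, 8 were higher and 1 lower. The largest was Slc7a11, the cystine transporter, with 7.61 and 9.66 CPM in set 1 against 14.9, 12.4, 14 and 13.4 CPM in set 2 (0.67). MHC class I presentation was lower, 9 of 18 against 1 higher (median -0.21), with the class I heavy chain H2-K1 at 736 and 778 CPM in set 1 against 606, 655, 626 and 630.2 CPM in set 2 (-0.26), H2-T23 at -0.53 and the loading factor Tapbp at -0.35. With guides 8 were lower and 1 higher. Targets of p53 were lower in 8 of 15 and higher in 2 (0 higher without control replicate 1, 1 without replicate 2, 5 or 6), Bbc3, which encodes the killer protein PUMA, having 29.8 and 27.2 CPM in set 1 against 9.96, 12.7, 14.4 and 16.1 CPM in set 2 (-1.10). Bcl2, which opposes it, had 21.1 and 23.3 CPM in set 1 against 70.4, 65, 72.8 and 77.5 CPM in set 2 (log2 fold change 1.69, SE 0.084, adjusted p = 5.69e-10), and Bid, which promotes death, 1.01. The BCL2 family list had no common direction, with 3 higher and 3 lower of 11 (median -0.13).

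**Figure D3:**
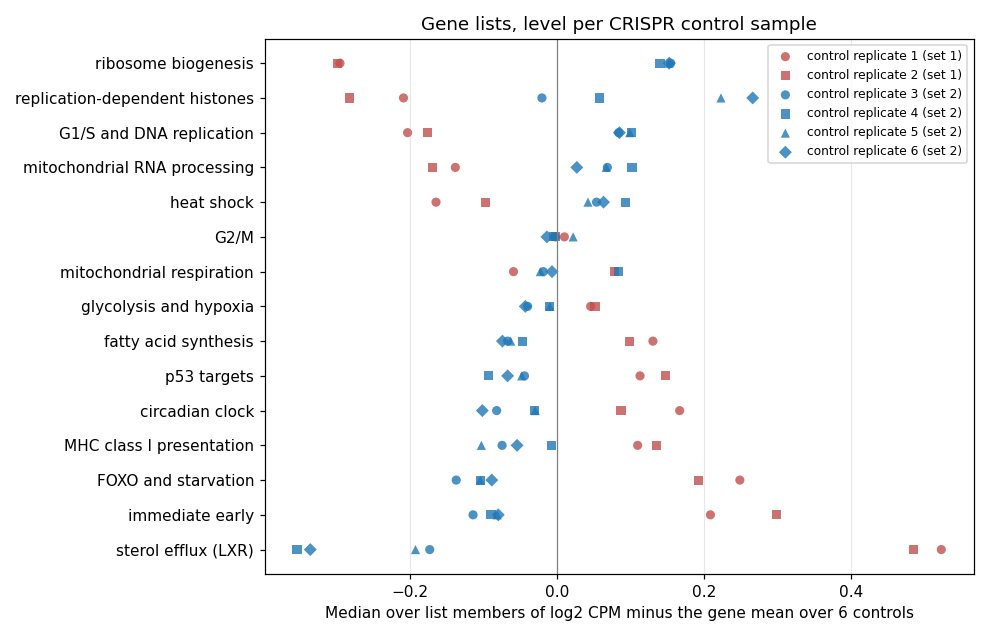
Median over the tested members of each gene list of log2 CPM minus the gene's mean over the 6 CRISPR controls (1 point per sample, set 1 red, set 2 blue). For ribosome biogenesis, G1/S and mitochondrial RNA processing both set 1 samples lie to the left of all set 2 samples and for sterol efflux, immediate early and FOXO genes to the right, while G2/M and mitochondrial respiration overlap.

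T cell genes showed no common direction. Of 27 in the T cell list 10 were higher and 10 lower. The CD3 chain genes Cd3d, Cd3e and Cd3g were lower, at -0.65 to -0.14, and -0.74 to -0.62 in the guide line. This subset was named after its values were seen and leaves out Cd247, a further receptor complex gene of the list. Tcf7, a T cell transcription factor, had 118 and 118 CPM in set 1 against 235, 224, 224 and 215 CPM in set 2 (log2 fold change 0.93, SE 0.048, adjusted p = 9.02e-10), Ubash3a, a phosphatase that damps receptor signals, 1.09, and Trat1, a receptor-associated adaptor, 0.752 and 0.947 CPM in set 1 against 4.81, 4.34, 5.27 and 3.09 CPM in set 2 (2.36). Pdcd1, the inhibitory receptor PD-1, went from 161 ± 4.82 to 333 ± 5.08 CPM (log2 fold change 1.05, SE 0.045, adjusted p = 1.24e-10). Granzyme genes split, Gzma at 14.1 and 12.6 CPM in set 1 against 44.9, 51, 46.6 and 43.2 CPM in set 2 (1.80) and Gzmb at -1.26. Pdcd1 and these granzyme genes belong to a T cell activation list in which more members were lower. Of 14 tested 2 were higher and 5 lower (median -0.13), with Cd40lg at -1.13. In the guide line 5 of 15 were higher and 3 lower. Receptor genes split as well, 8 higher and 9 lower of 23, with 5 higher without control replicate 1 or 5: Ccr9, the gut-homing receptor, had 1.32 and 2.18 CPM in set 1 against 11.9, 10.4, 8.92 and 7.80 CPM in set 2 (log2 fold change 2.48, SE 0.25, adjusted p = 1.3e-06), Ccr2 2.43 and Il2rb, a chain of the IL-2 receptor, -0.61 (call lost without replicate 1). Ccr7, under 1 CPM in every control, had 1.90, a call lost without replicate 1 (adjusted p = 0.361) and in 5 other alternatives. In the interferon list 7 of 28 were higher and 9 lower (20.9% and 21.7% over all genes), so it had no common direction (median -0.047). The 4 called members with the largest change, which the naming rule took, were all higher and do not stand for the list. Usp18, which ends interferon signals, was at 3.57 and 2.18 CPM in set 1 against 20.3, 18.9, 19.2 and 17.4 CPM in set 2 (log2 fold change 2.72, SE 0.16, adjusted p = 5.06e-09). The others were low in both sets: Rsad2 at 0.567 ± 0.403 and 3.18 ± 0.621 CPM (2.48), Parp14 (3.16) and the chemokine Cxcl10 (2.16), with set 2 means of 1.76 and 2.34 CPM for the last 2. Stat5a and Stat5b, which carry IL-2 family signals, had log2 fold changes of 0.59 and 0.59, and Socs3, a feedback inhibitor below 1 CPM, of -2.63.

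Of the Notch list, 5 of 11 were higher and 2 lower, with 1 lower in each alternative that lost the call of Notch1. Hes1, the classical target, had 2 counts in set 1 and 126 in set 2, with 0.0940 and 0.0947 CPM in set 1 against 1.92, 2.56, 2.56 and 1.69 CPM in set 2, a pooled ratio of 23.1 (95% counting interval 6.28 to 193, adjusted p = 1.6e-05). It was higher in set 2 of the guide line too, at 1.04 and 1.51 against 9.13 to 11.3 CPM. Its level in set 2 controls was 2.98% of that in wild-type BioNICD cells. For Dtx1, Hey1 and Il2ra, below 0.5 CPM in all controls, that share was 0.0180%, 0.0397% and 0.0159%; whether reads from other libraries contribute at this level was not tested. Notch1 itself had -0.74 with an adjusted p of 0.0491, a call that 8 alternatives lost. Small nucleolar RNA genes were called higher in 26 and lower in 0 of 83 (median 0.41), and in 16 (DESeq2) to 32 over the alternatives, with 1 lower without control replicate 1 and 3 without replicate 2. Most lie inside introns of other genes, so reads of the host can add to them. They differed within set 1: Snora7a had 22.6 and 45.3 CPM in set 1 against 69, 83.7, 62.8 and 61.2 CPM in set 2 and Snord16a 14.2 and 28.6 CPM in set 1 against 46.5, 61, 45.2 and 44.4 CPM in set 2, with replicate 1 lowest in both. The guide line gave 10 higher and 7 lower of 84. Of imprinted genes, Grb10, a brake on insulin signalling, had 3.20 and 2.94 CPM in set 1 against 0.0687, 0.131, 0.293 and 0.211 CPM in set 2 (log2 fold change -4.07, SE 0.38, adjusted p = 5.71e-07) and Kcnq1ot1, which is antisense to Kcnq1 and was counted with no stated use of strand, 0.86.

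The same 2 sets in the guide line gave an estimate that shares no sample with the controls. There 3948 of 10806 genes were called (36.5%), and 6238 without guide replicate 2. Of 10474 genes tested in both lines 2271 were called in both, which is 50.7% of the control calls and 58.6% of the guide calls. Of these 2113 went the same way (93%), 1001 higher and 1112 lower in set 2, and 158 went opposite ways. Across genes, which are not independent, the log2 fold changes had a Pearson r of 0.570 and a Spearman rho of 0.518. Of 301 genes at least 2-fold apart in the controls and tested in both lines, 178 were called the same way in the guide line, 99 of them at least 2-fold, 4 were called the opposite way and 119 were not called. The genes with the largest difference common to both lines were, besides Lars2, Asb2 (log2 fold changes 5.04 in controls and 3.93 with guides), Stab1, a scavenger receptor gene (3.88 and 3.31), Zfp57 and Cd200r1. Zfp57 had 0.0559 and 0.0746 CPM in set 1 and 0.653 to 1.21 CPM in set 2 of the guide line. Cd200r1, an inhibitory receptor gene, had 1 count in set 1 and 105 in set 2 of the controls, a pooled ratio of 38.6 (95% counting interval 6.77 to 1538), and 0 and 0.149 against 1.92 to 3.19 CPM in the guide line. On the lower side were 5930403L14Rik (-5.67 and -6.11), Grb10 (-4.07 and -2.97), Zbtb10 (-2.81 and -3.27), Abcg1 (-2.07 and -1.72) and Fosb (-1.69 and -2.24).

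**Figure D4:**
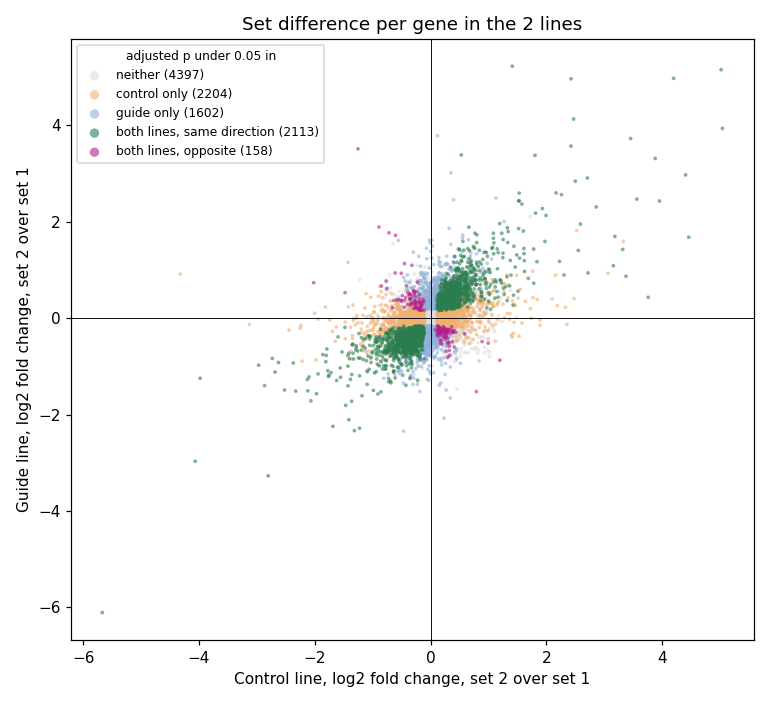
Log2 fold change of set 2 over set 1 in the control line (horizontal) and the guide line (vertical) for 10474 genes tested in both, 1 point per gene, coloured by which line calls it at an adjusted p under 0.05. The 2113 genes called the same way fill the lower left and upper right, and the 158 called opposite ways the other corners.

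The set difference itself differed between the lines in 1624 of 11241 genes (14.4%), 852 larger in the guide line on the signed scale and 772 smaller. That count was 3985 without guide replicate 2, 820 without control replicate 1 and 972 without control replicate 2. On the side of a smaller value in the guide line, Ccr9 was higher in set 2 of the controls, while guide samples had 0.149 to 0.391 CPM in set 1 and 0.0648 to 0.261 in set 2 (interaction -3.20, adjusted p = 0.021). Ms4a6b had an interaction of -3.32 and Ctsl, cathepsin L, of -4.08, Ctsl going from 2.83 ± 1.05 to 8.92 ± 0.695 CPM in the controls. Fut10 and Zbtb20 completed the 5. Both were under 1 CPM in every control, while Fut10 stood at 118 and 126 CPM in set 1 and 83.3 to 94.3 CPM in set 2 of the guide line. On the other side, Ramp3, a receptor-modifying protein gene, went from 5.52 ± 0.0960 to 14.6 ± 0.544 CPM in the controls (1.41) and from 0 and 0.149 to 2.24 to 3.11 CPM in the guide line (interaction 3.81), and Foxb1 had 0.53 and 3.38 (2.86). Nrp2, a semaphorin and VEGF coreceptor gene, had 4.79 and 3.88 CPM in set 1 against 0.687, 0.328, 0.731 and 0.211 CPM in set 2 in the controls (-3.13) but -0.13 with guides (3.01). Ncald had -0.89 and 1.89 (2.79), and Il18rap had 5 counts in set 1 and 0 in set 2 of the controls against 5.29 to 7.60 CPM in all guide samples. Sgk1 differed in both lines and less in the guide line (-0.98, interaction 2.01).

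Genes were called on every chromosome, from 37.6% of those tested (chromosome 8) to 47.9% (chromosome 18). Median log2 fold changes per chromosome ran from -0.093 (chromosome 14) to 0.073 (chromosome 16). Chromosome 14 stood apart, with 34% of its 359 genes above 0. On the other chromosomes that share ran from 45.1% (X) to 60.7% (chromosome 16). The cause of the shift on chromosome 14 was not tested. By transcript GC content, known for 99.5% of tested genes, the median went from 0.050 in the lowest of 5 bins to -0.047 in the highest. By exon length the 5 medians lay between -0.032 and 0.039. The share of genes called rose with the level, from 24.2% in the lowest bin by mean CPM to 56.1% in the highest.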

How the data were processed

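Gene counts were deposited for 20 RNA libraries, made from ribosomal RNA-depleted total RNA with a stranded kit per the labels' protocols. Per the file headers, the authors' files hold raw read counts per gene, made with featureCounts 1.5.0 from a UCSC mm9 annotation of 24391 genes with no strand option set, and STAR, Trimmomatic, FastQC and DESeq2 are named in the submitters' processing notes. Reads of overlapping or antisense genes therefore cannot be told apart. The members and lists were chosen with earlier results of these data known.

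Counts were tested with edgeR 4.0.16 in R 4.3.3 (TMM scaling, filterByExpr, quasi-likelihood test, Benjamini-Hochberg adjustment over all genes tested, adjusted p under 0.05). Separate fits were made for the 6 controls and the 6 guide samples, and a fit of all 12 gave the difference of set differences between lines (the interaction, guide minus control). A log2 fold change is set 2 over set 1, its SE is the fold change over the square root of F, and CPM is given as mean ± SD. A fold against no counts uses a floor of 3 counts over the group. The fit was checked on simulated counts. Intervals and floors cover counting error only. Genes were named by rule: the 12 largest differences in each direction among non-overlapping genes with 5 CPM or more, up to 4 called members of each of 39 lists, label checks, the 5 largest called interactions in each direction among genes with 5 CPM or more in 1 of the 4 groups, and the 5 genes in each direction with the largest smaller fold of the 2 lines among those called and at least 2-fold apart in both. Alternatives were DESeq2 1.42.0, upper quartile scaling, other filters, a test against a 1.5-fold change, leaving out Rn45s and Lars2, a fit of both lines, a replicate block and leaving out each replicate, and, added after seeing the data, replicates 1 and 6 together. Over genes tested in both lines, replicates with the same number showed little joint deviation (r over 0.1 in 1 of 6 pairs). The 2 pairs of set 1 mirror each other and give 1 value, -0.076. The 27 connective tissue genes are outside this measure, so it cannot show a pairing through them.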

Additional observations from a re-analysis of the deposited data

Results flagged for a closer look

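Among the 4 set 2 controls, 14 of 150 measures (library measures and the CPM of each gene named) had 1 sample far from the other 3 by Dixon's test. Chance would mark about 1 in 20 of independent measures. These are not independent, since Rn45s and Lars2 of replicate 6 each count both as a share and as CPM. Replicate 6 stood out in the Rn45s share (6.73%, or 71758 CPM), the Lars2 share (0.884%, or 9424 CPM) and Bag3 (34 CPM). Replicate 4 stood out in Elovl6 (46.8 CPM), Mt1 (270 CPM), Snord16a (61.0 CPM), Gimap5 (1.97 CPM) and Gimap3 (0 CPM). Replicate 5 had the fewest genes detected (13439) and stood out in Kif11 (316 CPM), Parp14 (2.56 CPM) and Socs3 (0.293 CPM). Gimap3 and Socs3 had only 3 and 7 counts over set 2, so their flags rest on a few reads.

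The set difference differed between the control and guide lines by edgeR's interaction test, adjusted over all genes, in 67 of the 137 named genes tested, 34 with a lower and 33 with a higher value in the guide line. Over all genes the share was 14.4%; the named genes include some chosen for their interaction or for an extreme difference in the controls, so their share is not read against it. The values below are log2 set differences, guide minus control. Of the 12 genes with the largest fall in the controls among those of 5 CPM or more in set 1, 10 passed the test with a positive value: Sgk1 2.01, 5830411N06Rik 1.58, Agpat9 1.48, Ccr6 1.04, Slc4a8 1.45, Myadm 2.09, Fbxo32 0.87, Amica1 0.62, Capg 0.89 and Fam134b 2.12. Of the 12 with the largest increase, 4 passed with a negative value, Dhrs3 -2.77, Ms4a6b -3.32, Syt13 -2.50 and Gimap9 -2.13. Both groups were picked for a large difference in the controls, so a smaller one in the other line is no separate result. Ets1 (-7.83), Zbtb20 (-5.82) and Il18rap (4.46) have a control set with no counts, so the size of their fitted values depends on the prior count.

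Replication and growth genes had positive values, Tyms 0.48, Ung 0.81, Gins1 0.47, Mcm10 0.26, Polr1b 0.37, Lrpprc 0.39 and Hspd1 0.31. All 7 were higher in set 2 of the controls. Nutrient, lipid and hypoxia genes had values on both sides: Txnip -1.05, Arrdc4 -1.0, Ndrg1 -1.10, Kdm3a -0.73 and P4ha2 -0.29 below 0, and Arrdc3 0.37, Klf2 0.86, Elovl6 0.97, Lpcat3 0.60 and Slc7a11 0.74 above. For metallothioneins it was -0.39 (Mt1) and -0.72 (Mt2), and for Gpx1 -0.31. Clock, serum and hormone genes gave Per1 -0.99, Dbp -0.68, Nr3c1 -0.46, Tsc22d3 -0.81 and Fos 1.12.

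Immune genes with a negative value were Usp18 -1.77, Rsad2 -2.07, Parp14 -2.06, Pdcd1 -0.97, Trat1 -2.48, Tcf7 -0.53, Cd3d -0.51, Ccr9 -3.20, Stat5a -0.48 and Nfkbia -0.73. Those with a positive value were Gzmb 4.77, Gzma 1.58, Ccr2 2.54, Il2rb 1.56 and Id2 0.84. In the BCL2 family, where 3 of 11 passed, Bcl2, which protects cells, had -0.85 and Bid, which promotes death, -0.65. The remaining values were -4.08 for Ctsl, -2.94 for Fut10, -0.68 for Kcnq1ot1 and -0.62 for H2afv, a gene the guides target, and 3.81 for Ramp3, 3.01 for Nrp2, 2.86 for Foxb1 and 2.79 for Ncald.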

How the results depend on the processing

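The 4595 genes called between the control sets ranged from 3526 to 4592 when 1 control was left out (lowest without replicate 1), and were 3829 by DESeq2 and 3173 without replicates 1 and 6. A test against a 1.5-fold change (glmTreat) called 333, of which 256 were at least 2-fold apart, against 391 in the test of any difference, a count that ranged from 360 to 449 when 1 control was left out. The guide line's 3948 ranged from 2880 to 6238 (highest without guide replicate 2), and the 1624 genes of the interaction from 820 (without control replicate 1) to 3985 (without guide replicate 2), with 972 without control replicate 2. With the replicate block the interaction gave 1207. Over genes tested in both lines same-numbered samples showed little joint deviation (2 of 6 controls deviated most like their own number). That measure leaves out the connective tissue genes, which replicate 1 of both lines shares. Replicate 6 of both lines has a raised Rn45s share. No pairing was assumed. Of 169 named genes called, 145 were called in every alternative run, and 0 of 1538 values reversed, 70 losing their call. Genes called higher ranged over the alternatives from 22 to 25 in ribosome biogenesis, 17 to 25 in G1/S and 36 to 46 in histones. Medians changed sign under at least 1 alternative in 8 of 39 lists (G2/M, T cell, STAT and SOCS, interferon, TGF-beta, aryl hydrocarbon receptor, respiration and imprinted). The cause of these changes was not tested. Only 2 libraries stand for set 1, so its spread is known from 1 pair, and genes below a few CPM carry wide counting error. The growth protocol entry and the header folder differ between the same samples as the sets and cannot be told apart from them.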

Other observations

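The list of small nucleolar RNA hosts and stable non-coding RNAs, which also holds Lars2 and Rn45s, was higher in set 2 in 10 of 16 tested and lower in 0, with a median log2 fold change of 0.42. Snhg3 had 9.78 and 11 CPM in set 1 against 19.4, 17.4, 15.7 and 17.1 CPM in set 2 (log2 fold change 0.75, SE 0.12, adjusted p = 0.000103). In the guide line 2 were higher and 3 lower. The antioxidant list was split, 6 higher and 5 lower of 20 (20.9% and 21.7% over all genes). Its largest member, Osgin1, an oxidative stress-induced gene, had 0.658 and 0.663 CPM in set 1 against 3.85, 4.14, 4.32 and 3.72 CPM in set 2 (log2 fold change 2.59, SE 0.28, adjusted p = 2.97e-06) and 1.95 in the guide line, while Gpx1, glutathione peroxidase, had 0.42.

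NF-kB genes showed no common direction, 3 higher and 4 lower of 18, near the shares over all genes (20.9% and 21.7%). Without control replicate 1, 2 were lower. Nfkbia, the inhibitor that NF-kB itself induces, had 44.6 and 50.9 CPM in set 1 against 66.1, 71.1, 65.1 and 73.2 CPM in set 2 (log2 fold change 0.53, SE 0.069, adjusted p = 1.77e-05), and Map3k14, the kinase of the alternative pathway, -0.35. Id2, which represses E protein factors, had 48.8 and 55.4 CPM in set 1 against 30.7, 28.1, 24.6 and 25.6 CPM in set 2 (log2 fold change -0.93, SE 0.087, adjusted p = 5.49e-07) and was the main contributor to the natural killer list, in which 6 of 10 genes were at 0 in all controls.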
